A study of Canis lupus familiaris with 8 samples.

Results

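ABCC1, ABCC4 and ABCC5 encode pumps that export drugs and metabolites from cells, and MVP encodes the major vault protein. Their mRNA was followed on 8 one-colour arrays of a canine mammary carcinoma line and its doxorubicin-resistant subline. Every gene probe whose RefSeq accession belongs to 1 of these 4 genes was taken, without regard to its signal. That gave 8 of 43603 probes, printed as 12 of 43803 gene spots. ABCC1 and ABCC4 have 1 probe each, ABCC5 has 3 probes on 7 spots, and MVP has 3 probes.

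CMT-Stylo is the drug-sensitive canine line, and CMT-Star is the subline kept in rising doxorubicin, an anthracycline, until it grew at 100 nM. Cancer stem cells, here CSC, are the cells of each line that flow cytometry sorted as CD44-positive with little or no CD24 and with aldehyde dehydrogenase activity. The 4 groups are Star CSC (sorted, from the resistant subline), Stylo CSC (sorted, from the untreated line), Star parent (unsorted resistant subline) and Stylo parent (unsorted untreated line). Each group has 2 arrays, so n = 2 holds throughout. All cells were kept in serum-containing medium, and both Star groups carry a doxorubicin label, although no label says whether drug was present at harvest. The data come from 1 line and 1 subline, and nothing says that 2 arrays of a group came from separate cultures. The p-values therefore cover only the spread within pairs of arrays, and that spread may be technical. In bulk RNA, fewer cells with a transcript and less of it per cell cannot be told apart.

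ABCC proteins belong to the ATP-binding cassette family, whose members use ATP to move molecules across membranes. ABCC1, first found in a doxorubicin-selected human lung cancer line, exports glutathione, glucuronide and sulphate conjugates and, with glutathione, some unmodified drugs such as anthracyclines. ABCC4 exports cyclic nucleotides, prostaglandins and nucleotide analogues, and ABCC5 exports cyclic nucleotides and nucleotide analogues. MVP, also called lung resistance-related protein, is no transporter: it forms the shell of vaults, large ribonucleoprotein particles of the cytoplasm, and is abundant in many drug-resistant human tumour lines.

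The brightness of the arrays bears on every comparison with Stylo parent. The processed signal at the 75th percentile of an array was 535.8 and 463.7 in Star CSC, 309.5 and 296.4 in Stylo CSC, 371.1 and 330.7 in Star parent, and 88.3 and 69.2 in Stylo parent. Of all probes, 55.5% to 60.6% were well above background on the other 6 arrays, against 47.4% and 46.7% on the Stylo parent arrays. All Star arrays lay on slide 2 and all Stylo arrays on slide 1, so line and slide cannot be told apart, while each comparison of sorted with unsorted cells stays within 1 slide. The sort marker CD44 was well above background on all 8 arrays. Of the 5 mammary epithelium markers with a named probe, 4 were well above background on both Star CSC arrays, 3 on both arrays of Stylo CSC and of Star parent, and 2 on both Stylo parent arrays. Divided by the array's 75th percentile, their summed signal was instead highest in Stylo parent, at 3.45 to 4.23. It was 1.2 to 1.35 in Star CSC, 2.28 to 2.45 in Stylo CSC and 0.939 to 1.09 in Star parent. The markers did not move together. By its brightest probe, CDH1 read 191 and 208 in Stylo CSC and 2.74 and 1.92 in Stylo parent. CLDN3 read 41.4 and 39.9 in Stylo CSC and 61.9 and 41 in Stylo parent.

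Levels are given below as log2 of the processed signal less that of the 75th percentile of the same array, so 0 is the level of that percentile. Levels of different probes are not comparable, because probes bind their targets with different strength. Probes were tested where some group had both arrays well above background, which 7 of the 8 met. A call needed an adjusted p under 0.05 in limma, with Benjamini-Hochberg adjustment over all 26737 probes tested, and a change of at least 2-fold. Where a gene has several tested probes, the one with the highest mean level stands for it.

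ABCC1 was highest in the sorted cells of the sensitive line. The processed signal of its probe A_11_P0000019697 was 352.6 and 297.1 in Star CSC, 1437.6 and 1089.3 in Stylo CSC, 349.0 and 331.1 in Star parent, and 41.1 and 35.6 in Stylo parent. Divided by the 75th percentile of the same array, the signal was 0.658 and 0.641 in Star CSC, 4.64 and 3.67 in Stylo CSC, 0.94 and 1.0 in Star parent, and 0.465 and 0.515 in Stylo parent. Mean log2 levels were -0.62 ± 0.03 in Star CSC, 2.05 ± 0.24 in Stylo CSC, -0.04 ± 0.06 in Star parent and -1.03 ± 0.10 in Stylo parent (SD, n = 2 each). In descending order, Stylo CSC stood above Star parent by a called margin, whereas Star parent and Star CSC, and then Star CSC and Stylo parent, were not called apart.

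ABCC4 gave the dimmest of the representative probes and ran in another order. Its probe A_11_P0000029419 read 45.3 and 42.8 in Star CSC, 114.0 and 88.0 in Stylo CSC, 89.3 and 65.9 in Star parent, and 25.9 and 30.9 in Stylo parent. These signals were 2.89 to 9.98 times the lowest signal that counted as well above background on the same array. Mean log2 levels were -3.50 ± 0.09 in Star CSC, -1.60 ± 0.22 in Stylo CSC, -2.19 ± 0.19 in Star parent and -1.47 ± 0.43 in Stylo parent. Star CSC was thus the lowest group, called apart from Star parent above it, while Star parent, Stylo CSC and Stylo parent were not called apart as neighbours.

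**Figure D1:**
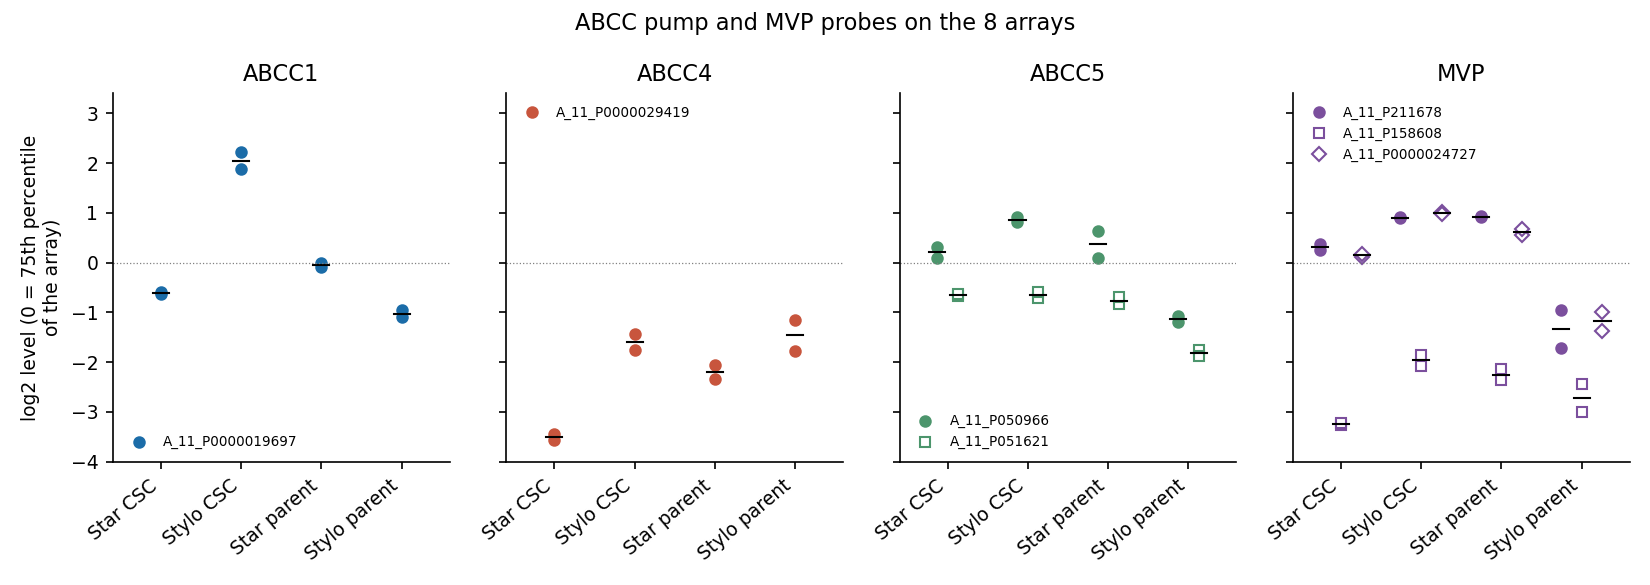
Log2 level of each tested probe on each array (vertical axis, 0 is the array's 75th percentile) in the 4 groups (horizontal axis), with 1 panel for each gene. Each symbol is 1 array and each bar the mean of 2; filled symbols are the representative probe, and heights of different probes are not comparable. ABCC1 stands alone at 2.05 in Stylo CSC, ABCC4 alone at -3.50 in Star CSC, and ABCC5 and MVP are lowest in Stylo parent by their representative probes.

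ABCC5 was lowest in the unsorted sensitive line. Its probe A_11_P050966, printed on 5 spots, had a signal of 662.9 and 496.3 in Star CSC, 543.5 and 562.3 in Stylo CSC, 575.4 and 355.7 in Star parent, and 41.9 and 30.1 in Stylo parent. Mean log2 levels were 0.20 ± 0.15 in Star CSC, 0.87 ± 0.08 in Stylo CSC, 0.37 ± 0.37 in Star parent and -1.14 ± 0.09 in Stylo parent. Down that order, Stylo CSC, Star parent and Star CSC were not called apart as neighbours, and Star CSC stood above Stylo parent by a called 1.34 ± 0.19 (SE, limma adjusted p = 0.000919).

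A second ABCC5 probe, A_11_P051621, read 333.9 and 299.4 in Star CSC, 187.4 and 194.9 in Stylo CSC, 207.5 and 203.1 in Star parent, and 26.3 and 19.0 in Stylo parent. Its mean levels were -0.66 in Star CSC, -0.66 in Stylo CSC, -0.77 in Star parent and -1.81 in Stylo parent, so Stylo parent was again the low group. The log2 levels of both probes correlated at r = 0.91 over the 8 arrays, given as a description of 4 groups. The remaining probe, A_11_P212613, carries the same accession but was never well above background, with signals of 1.7 to 3.7, and was not tested.

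The 5 spots of A_11_P050966 show how far 1 array can stray. Within an array their coefficient of variation was 2.3% to 41.3%. On Star CSC replicate 2, 1 spot read 209.7 while the other 4 read 499.7 to 700.3. On Star parent replicate 2, 1 spot read 118.2 while the other 4 read 391.2 to 521.7. The scanner software marked neither spot as an outlier. Taking the median of the 5 spots instead of their mean, an alternative chosen after seeing the data, gave signals of 612.2 and 591.7 in Star CSC and 593.3 and 470.0 in Star parent, and changed no ABCC5 call.

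**Figure D2:**
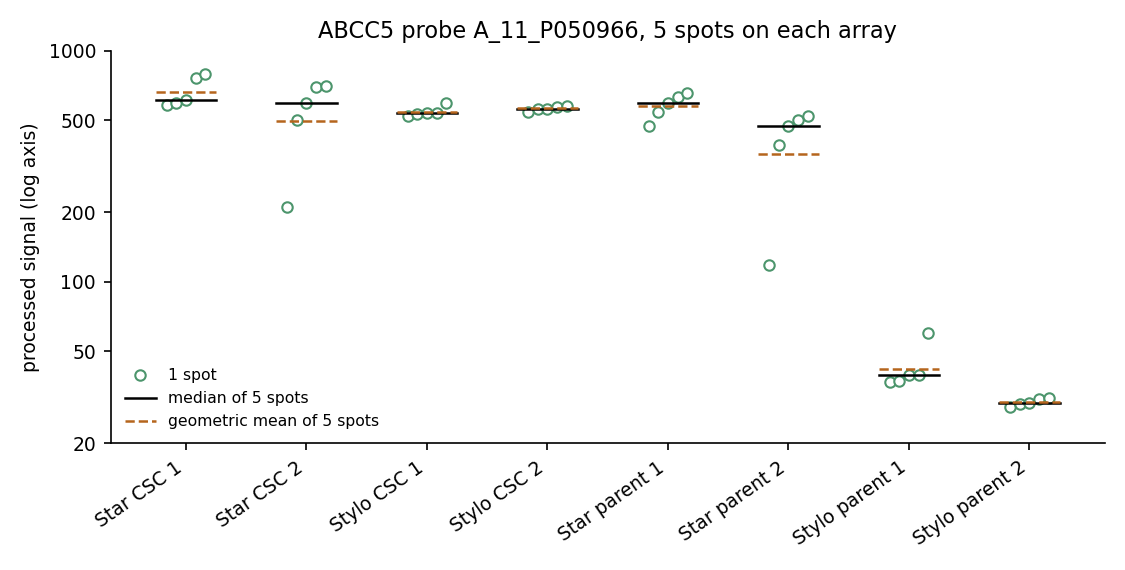
Processed signal (log axis) of the 5 spots of ABCC5 probe A_11_P050966 on each array, with the median and the geometric mean of the spots. Most spots of an array lie close together, but 1 spot at 209.7 on Star CSC replicate 2 and 1 at 118.2 on Star parent replicate 2 pull the mean below the median, while all Stylo parent spots lie at 59.7 or lower.

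MVP had its lowest level in Stylo parent too. Its probe A_11_P211678 read 639.3 and 599.9 in Star CSC, 580.7 and 553.7 in Stylo CSC, 705.2 and 627.3 in Star parent, and 45.9 and 21.1 in Stylo parent. Mean log2 levels were 0.31 ± 0.08 in Star CSC, 0.90 ± 0.00 in Stylo CSC, 0.92 ± 0.00 in Star parent and -1.33 ± 0.54 in Stylo parent. The Stylo parent arrays were thus the most uneven pair for this probe, and Star parent, Stylo CSC and Star CSC were not called apart as neighbours. Star CSC stood above Stylo parent by a called 1.64 on the log2 scale. Between those 2 groups, ABCC5 and MVP were called higher in Star CSC and ABCC4 lower (-2.04 ± 0.23), 3 of 4 genes, where 58.3% of tested probes were called, 23.5% higher and 34.8% lower.

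A second MVP probe, A_11_P0000024727, gave 581.7 and 521.7 in Star CSC, 624.3 and 584.3 in Stylo CSC, 545.8 and 524.9 in Star parent, and 44.4 and 26.8 in Stylo parent. The remaining one, A_11_P158608, was dim, at 55.8 and 49.4 in Star CSC, 85.8 and 70.5 in Stylo CSC, 72.4 and 74.8 in Star parent, and 16.2 and 8.6 in Stylo parent, where the second array was not well above background. The first 2 probes correlated at r = 0.98 over the arrays and the dim one at 0.48 and 0.55 with them. By the dim probe, the lowest mean level was that of Star CSC (-3.25 ± 0.02), not that of Stylo parent (-2.72 ± 0.39).

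The first comparison asks how the unsorted resistant subline differed from the unsorted line it came from. MVP was 4.77-fold higher in Star parent (log2 2.25 ± 0.24 SE, adjusted p = 0.000257), and ABCC5 was 2.84-fold higher (1.51 ± 0.19, adjusted p = 0.00056). ABCC1 stood at 0.99 ± 0.14, with an adjusted p of 0.000894 but a change of 1.98-fold, short of the fold limit. ABCC4 stood at -0.73 ± 0.23, 1.65-fold lower (adjusted p = 0.0287), also short of it. So 2 of the 4 genes were called, both higher, where 56.5% of all tested probes were called and 24.6% were called higher. The median change was 1.25 over the 4 genes and -0.20 over all tested probes.

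The other probes did not all behave alike in that comparison. The second MVP probe (1.79 ± 0.14) and the second ABCC5 probe (1.04 ± 0.11) were called higher as well, and the dim MVP probe was not (0.47 ± 0.20, adjusted p = 0.0763), although it was with spike-in scaling (1.46). The second ABCC5 probe fell under the fold limit when replicate 2 of Star parent (0.97) or of Stylo parent (0.98) was left out. ABCC1 passed the limit when Star parent replicate 1 (1.03) or Stylo parent replicate 2 (1.06) was left out, and under 3 of 6 other scalings. MVP was called under all 6 and ABCC5 under 5, the exception being normexp background correction (0.96).

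In the sensitive line, sorted cells were compared with the unsorted cells they came from, on 1 slide. This comparison shares its Stylo parent arrays with the one above. ABCC1 was 8.44-fold higher in Stylo CSC (3.08 ± 0.14, adjusted p = 1.5e-05), and 98.5% of tested probes had a smaller or more negative change. MVP was 4.70-fold higher (2.23 ± 0.24, adjusted p = 0.000302), and ABCC5 was 4.02-fold higher (2.01 ± 0.19, adjusted p = 0.000179). ABCC4 stood at -0.13 ± 0.23 with an interval of -0.70 to 0.44 (adjusted p = 0.627). Thus 3 of the 4 genes were called, all higher, where 54% of tested probes were called and 21.9% were called higher. The median change was 2.12 over the 4 genes and -0.27 over all probes.

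The ABCC1, ABCC5 and MVP calls held under all 6 other scalings and without each of the 8 arrays in turn. The sign for ABCC4 did not: it was above 0 under 4 of the 6 scalings, and was called higher under 1 of them, scaling to spike-ins (1.97). The change in ABCC1 exceeded that in ABCC4 by 3.21 on the log2 scale, a difference that any constant taken off a whole array leaves as it is. The second ABCC5 probe was called higher too, at 1.14 ± 0.11, a smaller change than that of the first. Of the other MVP probes, 1 was called (2.18 ± 0.14) and the dim one was not (0.76 ± 0.20), but it was called without Stylo parent replicate 1 (1.04), with median scaling (1.2) and with spike-in scaling (2.86).

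In the resistant subline, the same sort was set against its own unsorted cells on the other slide. ABCC4 was 2.48-fold lower in Star CSC (-1.31 ± 0.23, adjusted p = 0.0112), and 5.1% of tested probes had a more negative change. ABCC1 stood at -0.58 ± 0.14 (1.49-fold lower, adjusted p = 0.0277), ABCC5 at -0.17 ± 0.19 (adjusted p = 0.538) and MVP at -0.61 ± 0.24 (adjusted p = 0.107). Only ABCC4 of the 4 genes was called, where 9.69% of tested probes were called and 6.48% were called lower. The median change was -0.60 over the 4 genes and -0.10 over all probes.

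The ABCC4 call rested on Star parent replicate 1. Without that array the change was -1.17 with an adjusted p of 0.0576. Scaling to spike-ins put the median change of all probes in this comparison at 1.63 and ABCC4 at 0.43, which is -1.20 relative to that median. With normexp ABCC4 stood at -0.35 and was not called. With the scaling used throughout, the interval of ABCC1, uncalled for want of a 2-fold change, ran from -0.92 to -0.24. Those of the other uncalled genes ran from -0.64 to 0.30 for ABCC5 and from -1.20 to -0.02 for MVP. A change of ABCC5 beyond 2-fold in either direction lay outside its interval under that scaling. That did not hold under every scaling: by its representative probe, ABCC5 was called under 1 of 6 others. Spike-in scaling put ABCC5 at 1.57 by its representative probe and at 1.85 by its second probe, both called. Relative to the median of all probes, these were -0.06 and 0.22. The intervals also cover only the spread within pairs of arrays.

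**Figure D3:**
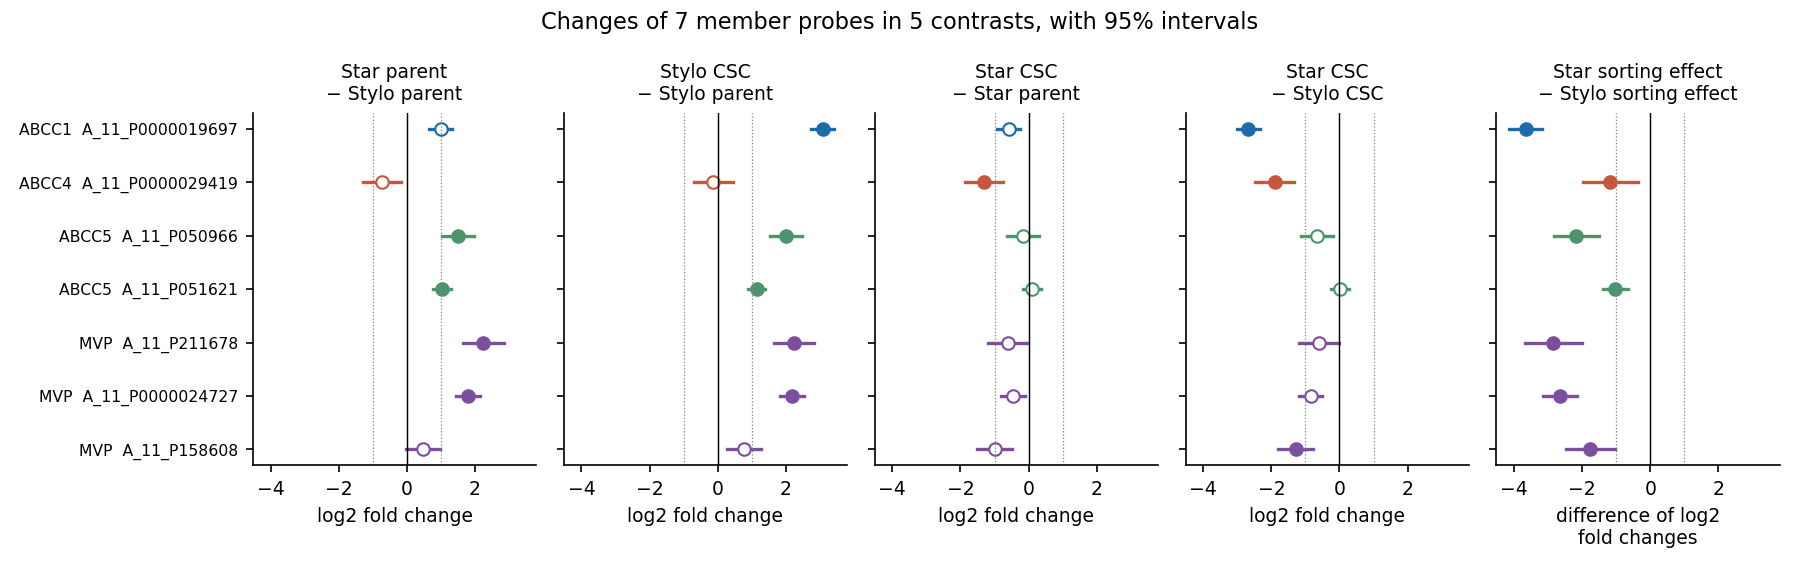
Log2 fold changes (horizontal axis) of the 7 tested probes in the 4 comparisons, and in the last panel the difference between the sorting effects of the resistant and the sensitive line, with 95% intervals from limma. Filled circles passed the call and dotted lines mark 2-fold. ABCC1 lies at 3.08 in Stylo CSC against Stylo parent and at -0.58 in Star CSC against Star parent, and all 7 probes are left of 0 in the last panel.

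Between the sorted populations, ABCC1 was 6.36-fold lower in Star CSC than in Stylo CSC (-2.67 ± 0.14, adjusted p = 6.71e-05), and 2.5% of tested probes had a more negative change. ABCC4 was 3.74-fold lower (-1.90 ± 0.23, adjusted p = 0.00109). ABCC5 stood at -0.67 ± 0.19 (adjusted p = 0.027) and MVP at -0.59 ± 0.24 (adjusted p = 0.0803), neither of them called. Of the 4 genes, 2 were called, both lower, where 29.4% of tested probes were called and 16.8% were called lower. The median change was -1.28 over the 4 genes and -0.10 over all probes.

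This comparison does not use the dim Stylo parent arrays. The ABCC1 call held under all 6 other scalings (-2.68 to -1.79) and without any 1 array. That of ABCC4 held without any 1 array but was lost with spike-in scaling (-1.28, adjusted p = 0.0516) and with normexp (-0.65). ABCC1 changed more than ABCC5 by -2.00 and more than MVP by -2.08. The 3 MVP probes stood at -0.59, -0.85 and -1.29, the dim one alone past the call (adjusted p = 0.00294), which it kept under 4 of 6 other scalings. The second ABCC5 probe stood at 0.01 ± 0.11.

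Star parent was also set against Stylo CSC, the remaining pair without Stylo parent, to place the levels in order. ABCC1 was 4.26-fold lower in Star parent (-2.09 ± 0.14, adjusted p = 0.000181), and no other gene of the 4 was called, where 24.3% of tested probes were called and 11.6% were called lower. MVP differed by 0.02, ABCC5 by -0.50 and ABCC4 by -0.59. ABCC1 was therefore lower in both Star groups than in Stylo CSC, although line and slide cannot be told apart here.

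The sorting effect, the change from unsorted to sorted cells, was then compared between the lines. Each effect was measured within 1 slide. For ABCC1 it was -0.58 in Star and 3.08 in Stylo, a difference of -3.66 ± 0.20 (adjusted p = 5.69e-05), and 1.3% of tested probes had a more negative one. For MVP it was -0.61 in Star and 2.23 in Stylo, a difference of -2.85 ± 0.34 (adjusted p = 0.000706). For ABCC5 it was -0.17 in Star and 2.01 in Stylo, a difference of -2.17 ± 0.27 (adjusted p = 0.000823). For ABCC4 it was -1.31 in Star and -0.13 in Stylo, a difference of -1.18 ± 0.33 (adjusted p = 0.0208).

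All 4 genes were thus called with a difference below 0, where 52.1% of tested probes were called and 24% were called below 0. The median was -2.51 over the 4 genes and 0.15 over all probes. By their representative probes, the differences of ABCC1, ABCC5 and MVP were called under all 6 other scalings and without each array in turn. The second ABCC5 probe gave a smaller difference (-1.03 ± 0.15), called under 3 of 6 scalings and in 5 of 8 fits that left out an array. The dim MVP probe gave -1.76 ± 0.29, called under 5 of 6 scalings. The difference for ABCC4 was called under 3 of 6 scalings and in 4 of 8 fits that left out an array. It was lost without Star CSC replicate 1 (-1.12), Stylo CSC replicate 1 (-1.02), Star parent replicate 1 (-1.04) or Stylo parent replicate 1 (-0.88).

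**Figure D4:**
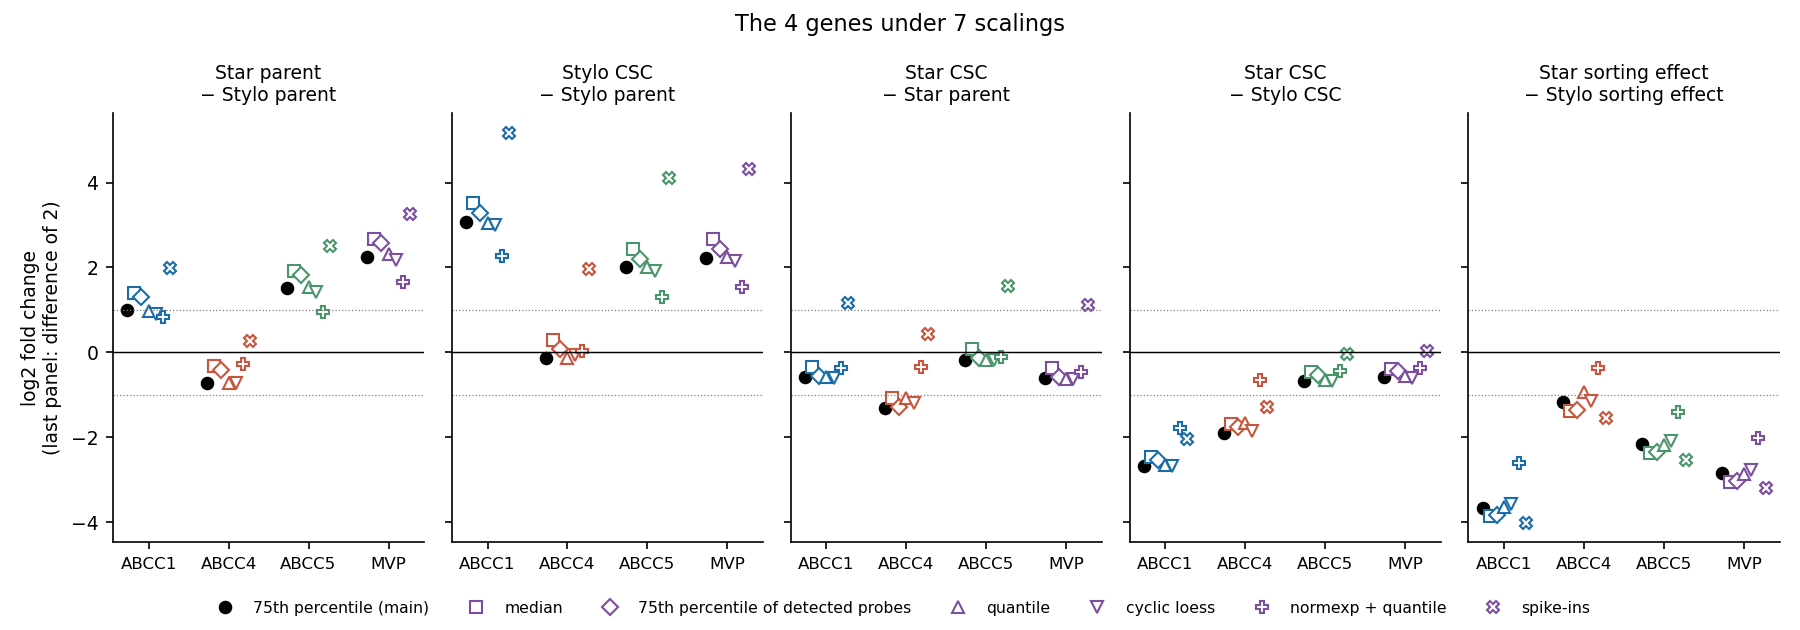
Log2 fold change (vertical axis; in the last panel the difference between both sorting effects) of each gene's representative probe under 7 scalings, shown by symbol. Black circles are the 75th-percentile scaling used throughout and dotted lines mark 2-fold. ABCC1 in Stylo CSC against Stylo parent ranges from 2.26 to 5.18 and stays above 2-fold, while in Star CSC against Star parent spike-in scaling alone puts ABCC1 (1.16), ABCC4 (0.43) and MVP (1.12) above 0.

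Other ABC transporters of the array were taken from a list of 45 genes, of which 7 have a named probe. Probes for ABCC2, an apical conjugate export pump of liver and kidney, ABCB11, the bile salt export pump, and CFTR, a chloride channel of the ABCC family, never reached the scanner's mark of well above background on the 8 arrays. The 4 tested were ABCB1, TAP1, TAP2 and ABCA4. Relative to Stylo parent, 3 of 4 were called higher in Star parent, where 56.5% of all tested probes were called and 24.6% called higher. In Stylo CSC, 2 were called higher and 1 lower, where 54% were called and 21.9% called higher. Star CSC had 1 of 4 called lower against Star parent, where 9.69% were called and 6.48% called lower. Against Stylo CSC, 3 of 4 were called higher, where 29.4% of all were called and 42.9% of those calls were higher.

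ABCB1, P-glycoprotein, the best-known doxorubicin efflux pump, had another pattern than ABCC1. Its signal was 10500 and 8060 in Star CSC, 1050 and 1040 in Stylo CSC, 4470 and 4200 in Star parent, and 183 and 155 in Stylo parent. It was called higher in Star CSC than in Stylo CSC (2.42 ± 0.11, adjusted p = 4.05e-05), where ABCC1 was called lower. In the sorts it stood at 0.58 ± 0.11 in Star and 0.68 ± 0.11 in Stylo, neither called, and the difference between them was -0.10 ± 0.15 (adjusted p = 0.583). Under other scalings the Star change ran from 0.58 to 2.32, called under 1 of 6. The Stylo change ran from 0.58 to 2.78, called under 2 of 6. Their difference ran from -0.46 to 0.06 and was called under none. A second ABCB1 probe gave 2.14 ± 0.19 between the sorted groups, also called.

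TAP1 and TAP2, which carry peptides into the endoplasmic reticulum for antigen presentation, were called higher in Stylo CSC than in Stylo parent (2.27 ± 0.09 and 2.17 ± 0.15). Between the sorted groups both were called higher in Star CSC (1.17 and 1.14), opposite in sign to ABCC1 and ABCC4. ABCA4, a retinoid transporter of photoreceptors, was called lower in both sorts, at -2.41 ± 0.18 in Star and -2.00 ± 0.18 in Stylo, but stood at -0.68 in Star and 0.10 in Stylo with spike-in scaling, which raised the median change of all probes to 1.63 in Star and 1.83 in Stylo.

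Glutathione is a partner of ABCC1 transport, and 5 genes of its synthesis and conjugation were tested. In Star CSC against Stylo CSC, 1 was called higher and 2 lower, where 29.4% of all tested probes were called and 16.8% called lower. SLC7A11, the cystine carrier that supplies glutathione synthesis, had a signal of 17.2 and 17.0 in Star CSC, 185 and 158 in Stylo CSC, 27.7 and 21.7 in Star parent, and 38.3 and 43.1 in Stylo parent. It was called lower in Star CSC than in Stylo CSC (-4.04 ± 0.20, adjusted p = 5.46e-05) and in Star parent than in Stylo parent (-2.89 ± 0.20). Both calls held under 6 of 6 other scalings.

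SLC3A2, the chain that pairs with SLC7A11, was called lower in Star CSC than in Stylo CSC by both its probes (-2.61 ± 0.15 and -1.91 ± 0.20). Those probes disagreed between the unsorted groups, at -1.99 ± 0.15 and 0.22 ± 0.20. GSTA4, a glutathione transferase for lipid peroxidation products, was called higher in Star CSC than in Stylo CSC (1.01 ± 0.10). GSTP1, another transferase, and GPX1, a glutathione peroxidase, were called in none of the 5 contrasts by their representative probes, but this depended on the scaling. In Stylo CSC against Stylo parent GSTP1 was called under 5 of 6 other scalings (0.94 to 2.83) and GPX1 under 3 (0.23 to 2.13), and in Star parent against Stylo parent GSTP1 was called under 4 (0.58 to 2.12) and GPX1 under 3 (-0.16 to 1.52).

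Of the transcription factors listed as acting on ABCC genes or MVP, 2 were tested. HIF1A, the hypoxia-responsive factor, was called higher in Star parent than in Stylo parent (1.47 ± 0.09) and in Stylo CSC than in Stylo parent (1.15 ± 0.09). Its sorting effect differed between Star and Stylo by -1.78 ± 0.13 (adjusted p = 0.000107), the sign that all 4 genes above had and with which 24% of all tested probes were called. A second HIF1A probe stood at -1.06 ± 0.50 there and was not called (adjusted p = 0.109), and the remaining one was (-1.23 ± 0.20). PPARA, a lipid-sensing nuclear receptor, was well above background by its brighter probe on both arrays of each Star group and on no Stylo array. By that probe its sorting effects differed by 1.31 ± 0.62, not called and opposite in sign to HIF1A. Its other tested probe was well above background on 5 arrays and was called lower in Stylo CSC than in Stylo parent (-2.66 ± 0.43). Signals of that probe were 3.06 and 6.33 in Stylo CSC and 11.1 and 4.66 in Stylo parent. All but that of Stylo parent replicate 1 lay below the lowest signal well above background on the same array. Whether either factor bears on the 4 genes was not tested. Neither of the vault partners PARP4 and TEP1 has a named probe here.

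By the scaling used throughout, mesenchyme and fibroblast markers mostly rose with ABCC1 in the sort of the sensitive line, but not between the unsorted groups. Of the 6 tested, 4 were called lower and 1 higher in Star parent than in Stylo parent, while ABCC1 stood at 0.99. In that contrast 56.5% of all tested probes were called and 24.6% were called higher. Stylo CSC had 4 of the 6 called higher and 1 lower than Stylo parent, where 54% were called and 21.9% called higher. In Star CSC, 5 were called lower than in Stylo CSC, where 29.4% were called and 16.8% called lower. One of the 4 called higher in Stylo CSC was THY1, whose second probe was called the opposite way in that contrast (-2.24). The summed signal of the 6, in units of the array's 75th percentile, was 293 to 318 in Star CSC, 1290 to 1400 in Stylo CSC, 375 to 441 in Star parent and 664 to 739 in Stylo parent. VIM (signals of 211000 and 222000 in Stylo CSC) and COL1A2 made up most of that sum. Before division by the percentile, VIM read 90200 and 82600 in Star parent and 51200 and 45800 in Stylo parent. The collagen gene COL1A1 was 2.42 ± 0.12 higher on the log2 scale in Stylo CSC than in Stylo parent. Between the unsorted groups, other scalings put VIM at -1.01 to 0.98 and THY1 at 0.54 to 1.29, each called under 1 of 6. COL1A1, DCN and PDGFRB were called lower there under 6 of 6, and COL1A2 was called higher under 6 of 6. All 6 markers were well above background on every array, and their part in the ABCC1 result was not tested.

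Leukocyte markers summed to 1.04 to 1.1 in Star CSC, 0.0844 to 0.112 in Stylo CSC, 0.132 to 0.165 in Star parent and 0.284 to 0.294 in Stylo parent. Of 5 such markers with a named probe, 3 were well above background on both Star CSC arrays, 2 on both Star parent arrays and none on both arrays of either Stylo group. The Star CSC sum was mostly CD86, with signals of 514 and 461 there and 21.8 on both Star parent arrays. In Star CSC, the markers TYROBP (15.9 and 13.2) and CD79A (18.5 and 20.6) lay close to the lowest signal well above background (10.62 and 11.87). No marker was well above background on both Stylo parent arrays, so the sum there rests largely on signals near background. The rise in Star CSC was thus mainly that of CD86, and its part in the lower ABCC4 of Star CSC was not tested. The sort marker CD44 stood at -0.88 in Star CSC against Star parent and at 0.99 in Stylo CSC against Stylo parent, neither called, but the Stylo change was called under 5 of 6 other scalings (0.92 to 3.09).

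The cells were also sorted on aldehyde dehydrogenase activity, and 2 genes of such enzymes were tested. ALDH3A1 was called lower in both sorts, at -1.51 ± 0.19 in Star and -1.69 ± 0.19 in Stylo, each time under 5 of 6 other scalings as well, while spike-in scaling gave 0.23 in Star and 0.41 in Stylo. A second ALDH3A1 probe was called lower in both sorts too (-1.13 in Star and -2.71 in Stylo). ALDH1A1 was well above background in Star CSC alone, with signals of 53.7 and 44.5 there, 3.56 and 3.27 in Stylo CSC, 11.8 and 5.73 in Star parent, and 2.69 and 4.48 in Stylo parent. It was tested only because of its Star CSC signal.

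The genes most like each of the 4 were found among 975 named genes by Pearson's correlation of log2 level over the 8 arrays, a description without a test, since the arrays form 4 groups. Closest to ABCC1 were PYGL, the liver glycogen phosphorylase (r = 0.992), the caspase CASP2 (0.976) and the surface glycoprotein THY1 (0.974). The THY1 probe behind that value is the one that stood at 2.73 in Stylo CSC against Stylo parent. ABCC4 was closest to SNAP91, a clathrin assembly protein (0.977), to FLCN, folliculin (0.972), and to the endothelin receptor EDNRA (0.948).

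ABCC5 was closest to THADA (0.994), the GDP-fucose carrier SLC35C1 (0.978) and the small GTPase RAB13 (0.977). The SLC35C1 levels of -5.5 and -5.32 in Stylo parent lay below the lowest signal well above background on those arrays, so its correlation rests partly on background values. MVP was closest to the adhesion receptor ADGRE5 (0.985), the glucose carrier SLC2A1 (0.98) and the lysosomal phospholipase PLA2G15 (0.978). The ADGRE5 level of -3.32 on Stylo parent replicate 2 also lay below the lowest signal well above background on that array. Correlations over 0.95 were found for 14 genes with ABCC1, 2 with ABCC4, 17 with ABCC5 and 21 with MVP. Among the 4 genes themselves, ABCC5 and MVP were the closest pair (0.94), followed by ABCC1 with ABCC5 (0.77) and with MVP (0.65). ABCC4 correlated at 0.34 with ABCC1, -0.23 with ABCC5 and -0.31 with MVP. Every one of these values shares the low Stylo parent arrays.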

How the data were processed

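Per the file headers, the authors scanned 8 one-colour arrays and quantified them with Agilent Feature Extraction 11.5.1.1, which gave an intensity (processed signal) for each spot with flags. The deposited series table holds log2 values. They equal log2 of the processed signal less a constant per array, centred on each probe (SD of the difference at most 5.7e-07 over 18346 probes; column medians -0.27 to 1.01), so they are no independent measure. The authors' steps beyond these are not given in the sources used here.

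Control spots and outlier-marked spots were dropped, spots of 1 probe were averaged as log2, and arrays were scaled to their 75th percentile. A probe entered the tests if some group had both arrays well above background and all 8 arrays gave a value. limma 3.58.1 in R 4.3.3 (lmFit, eBayes) was fitted to the 4 group means on 26737 probes, two-sided, with Benjamini-Hochberg adjustment. The fit was tested on simulated data. A RefSeq gene table of assembly UU_Cfam_GSD_1.0, used only for symbols, named 2353 of 43603 probes (5.4%). Another 19070 Ensembl and 3746 model accessions were not named. No coordinates or sequences are given, since no genome of the array's build was used here.

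Every probe of the 4 genes is named. Other genes named are those of fixed lists called in a comparison described, ABCB1, and the 3 genes most correlated with each member. Marker genes and list genes named without a call were chosen after their values were seen. The members and lists were chosen with earlier results of these data known. Replicate numbers pair groups by label only: deviations of same-numbered arrays correlated at -0.07 to 0.07. Signal over background and the number of arrays limit precision. Alternatives covered scalings, background correction, filters, thresholds, variance models, the deposited table and leaving out each array.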

Additional observations from a re-analysis of the deposited data

Results flagged for a closer look

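By the representative probe of each of the 4 genes, the sorting effect differed between the lines by limma's test of the difference itself. The difference, Star minus Stylo, was -3.66 for ABCC1. MVP had a difference of -2.85 and ABCC5 one of -2.17. For ABCC4 it was -1.18, and the call depended on which arrays entered the fit. These differences share the Stylo parent arrays, and 52.1% of all tested probes were called in the same contrast.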

How the results depend on the processing

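The called changes of ABCC1, ABCC5 and MVP by their representative probes kept sign and call without each array in turn, and the called values of ABCC4 depended on it as described. Under other scalings the reversals were these. ABCC4 in Stylo CSC against Stylo parent stood at 0.30 with median scaling, 0.07 with the percentile of probes detected on all arrays, 1.97 with spike-ins and 0.03 with normexp, and ABCC4 in Star parent against Stylo parent at 0.27 with spike-ins. In Star CSC against Star parent, ABCC5 stood at 0.07 with median scaling, and spike-ins gave 1.16 for ABCC1, 0.43 for ABCC4, 1.57 for ABCC5 and 1.27, 0.74 and 1.12 for the MVP probes; relative to the median of all probes there (1.63), ABCC1 stood at -0.47 and MVP at -0.51. MVP in Star CSC against Stylo CSC stood at 0.04 with spike-ins. Leaving out 1 array gave -0.43 to 0.17 for ABCC4 in Stylo CSC against Stylo parent, -0.43 to 0.10 for ABCC5 in Star CSC against Star parent, and -0.05 to 0.07 for the second ABCC5 probe in Star CSC against Stylo CSC.

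Calls in Star CSC against Star parent numbered 22309 probes and 3 of the 4 genes with spike-ins, 743 and 0 with normexp, 7894 and 2 with no fold limit, and 1339 probes among those well above background on all arrays, against 2591 and 1; leaving out 1 array gave 0 to 1 genes. Calls in Star CSC against Stylo CSC numbered 1 gene with spike-ins, 2652 probes and 1 gene with normexp, 15231 probes with no fold limit and 4557 among probes above background on all arrays, against 7866 and 2. Normexp gave 8102 probes and 1 gene in Star parent against Stylo parent, 6683 probes in Stylo CSC against Stylo parent and 7378 for the difference of sorting effects, and spike-ins gave 7779 for the last. Without the filter on dim probes these 3 contrasts had 26671, 28593 and 21932 calls, and with no fold limit 4 genes were called between the unsorted groups. The share of calls that were higher was 43.6% between the unsorted groups but 57% with median scaling and 75.2% with spike-ins; in Stylo CSC against Stylo parent it was 40.6%, 57.3% and 98.5%, in Star CSC against Star parent 33.2%, 58.9% and 99.4%, in Star CSC against Stylo CSC 42.9%, 56.3% and 77.3%, and for the difference of sorting effects 54%, 46.5% and 36.3%. Except where a filter or limit by its construction changes the count, the cause was not tested.

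With the replicate number as a block, 15099, 14415, 2509, 7838 and 13896 probes were called in the 5 contrasts, and 2, 3, 1, 2 and 4 of the 4 genes, so the pairing changed no call of the 4 genes. Leaving out both Stylo parent arrays, an alternative chosen after seeing the data, kept the calls of ABCC1 in Star CSC against Stylo CSC and of ABCC4 in both comparisons of Star CSC that do not use those arrays. The fold limit decides ABCC1 between the unsorted groups. ABCC4 signals were 2.89 to 9.98 times the lowest signal well above background on the same array, and whether this bears on its calls was not tested.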

Other observations

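ABCC4 and ABCC5 export cyclic nucleotides, and 7 genes of the enzymes that make or degrade these, or of their subunits, were tested. In Star CSC against Stylo CSC, 5 were called higher and none lower, where 29.4% of all tested probes were called and 42.9% of those calls were higher. Of the 5, PDE5A was well above background in Star CSC alone and was tested only because of it, and PDE1A was well above background on no Stylo array, which leaves GUCY1A1, GUCY1B1 and ADCY5 measured in both sorted groups. GUCY1B1, a subunit of the nitric oxide receptor that makes cyclic GMP, had a signal of 1080 and 808 in Star CSC, 103 and 88.0 in Stylo CSC, 275 and 266 in Star parent, and 144 and 106 in Stylo parent. It was called higher in Star CSC than in Stylo CSC (2.58 ± 0.12, limma adjusted p = 4.94e-05), and its sorting effect differed between Star and Stylo by 3.61 ± 0.17, opposite in sign to ABCC4 and ABCC5. Its partner subunit GUCY1A1 was called higher between the sorted groups too (1.64 ± 0.10), and both calls held under 6 of 6 other scalings. In Stylo CSC against Stylo parent, 3 of the 7 were called lower, 1 of them, PDE1A, with no array of either group well above background. In that contrast 54% of all tested probes were called and 40.6% of those calls were higher.

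Among uptake carriers for organic ions and nucleosides, SLC29A1, the equilibrative nucleoside transporter, had a signal of 1100 and 979 in Star CSC, 2000 and 1830 in Stylo CSC, 396 and 476 in Star parent, and 66.1 and 52.6 in Stylo parent. It was called higher in Stylo CSC than in Stylo parent (3.06 ± 0.15, limma adjusted p = 1.85e-05) and lower in Star CSC than in Stylo CSC (-1.60 ± 0.15), the signs that ABCC1 had, and a second, dimmer probe was called in neither. With spike-in scaling the difference between the sorted groups was -0.97 and not called. SLCO2A1, a prostaglandin carrier, was also called lower in Star CSC than in Stylo CSC, where neither Star CSC array was well above background.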
